A study of Mus musculus with 4 samples.

Results

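Interferon-stimulated genes (ISGs) are the genes that cells switch on when interferon binds its receptors, and 47 of them were followed here in immune cells of the adipose tissue of lean and obese mice. The members were taken by name from a list of ISGs, which was drawn up with earlier results of these data known, and all 47 were found among the 35869 genes of the deposited tables. RNA-seq was performed on CD45+ cells, the immune cells that were enriched with CD45 microbeads from the stromal vascular fraction of the epididymal white adipose tissue (eWAT). The cells came from male C57BL/6 wild-type (WT) mice that received either normal diet (ND) or high-fat diet (HFD) for 12 weeks from 8 weeks of age, with 2 libraries per diet. Both groups were WT, and the labels separate them by diet alone. The number of mice behind each library is not given in the sources used here, so the p-values measure the spread between these libraries, which may be technical.

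There are 2 main branches of the interferon response. Type I interferons (IFN-α and IFN-β) bind IFNAR1 and IFNAR2, and the kinases JAK1 and TYK2 then activate a complex of STAT2 and IRF9 that binds the interferon-stimulated response element (ISRE). Interferon gamma (IFN-γ), a product of NK cells and T cells, binds IFNGR1 and IFNGR2, and signals through JAK1 and JAK2 to genes that carry the gamma-activated sequence (GAS). Many ISGs answer to both branches. The IFIT, OAS and Mx genes are best known as targets of type I interferon and are called type I-leaning here, whereas the guanylate-binding proteins (GBPs), the immunity-related GTPases (IRGs) and Irf1 are induced strongly by IFN-γ and are called gamma-leaning.

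Values are given as TPM, a length-normalized transcript abundance: the reads of a gene per length of that gene, scaled to the same total in every library. The number of counted reads per library was approximately 37500000 to 46800000, as estimated from the smallest steps between the TPM values of short genes. All members were well covered at this depth, and the fewest reads behind any value were approximately 64.7, for Ifit3b in HFD replicate 2. The replicates of HFD lay further apart than those of ND, with a spread of 3.57 counting errors between replicates against 1.53. This spread is the median absolute difference, scaled to match a standard deviation. HFD replicate 1 stood apart in spermatid transcripts, with a summed level of 6577.3 TPM against 1757 to 2023.2 TPM in the other libraries. HFD replicate 2 held the highest sum of fibroblast transcripts, with 5686.2 TPM against 2836.6 TPM in HFD replicate 1 and 522.2 and 561.1 TPM in the ND libraries. The defining marker of the sort, Ptprc (CD45), was at 54.5 and 59.4 TPM in ND and at 55.3 and 53.7 TPM in HFD, and the ranges overlapped. The other pan-immune markers were lower in both HFD libraries, with Coro1a called (298 and 293.7 TPM in ND against 169 and 192.4 TPM in HFD, limma log2 fold change -0.71, adjusted p = 0.0161) and Cd52 (-0.39, adjusted p = 0.0214) and Laptm5 (-0.09, adjusted p = 0.176) not called. The sum of these 4 markers was 2599.1 and 2509.9 TPM in ND against 2019 and 2111.4 TPM in HFD, and its part in the ISG levels was not tested.

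Most of the ISGs were lower in HFD. A member was called lower or higher when limma's adjusted p-value, by the Benjamini-Hochberg method over all 16849 genes tested, was under 0.05 and the change was at least 1.5-fold on the log2(TPM + 1) scale. This scale understates the change of weakly expressed genes, and the more so the lower their level. All 47 members were tested, and each was at 1.3 TPM or more in every library. By that rule 29 of the 47 members were lower in HFD, against a background of 10.3% of all genes tested. None of the 47 members was called higher, and 0 had an unadjusted limma p under 0.05 with a higher level in HFD, where 8.08% of all genes were called higher. With the adjusted p-value alone and no limit on the size of the change, 36 members passed, all of them lower in HFD, against 27.3% of all genes in either direction. Both HFD values lay below both ND values in 43 members, a pattern that 32.8% of all genes showed. Both HFD values lay above both ND values in 1 member, Ifi205, against 34.1% of all genes, and the diets overlapped in Oas1a, Oasl1 and Eif2ak2. The median log2 fold change of the members was -0.66, beside 0.06 over all genes tested. With 2 libraries a group, an exact permutation test of a single gene cannot go below a two-sided p of 0.333, so the calls rest on limma's estimate of the spread across all genes. Without HFD replicate 1 the number of members called lower was 27 and without HFD replicate 2 it was 26. Without ND replicate 1 or without ND replicate 2, limma called 0 members and 0 of all 16849 genes, and 32 and 29 members, respectively, were lower at an unadjusted p under 0.05. In these fits the lone ND sample was assumed to vary like the HFD samples.

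**Figure D1:**
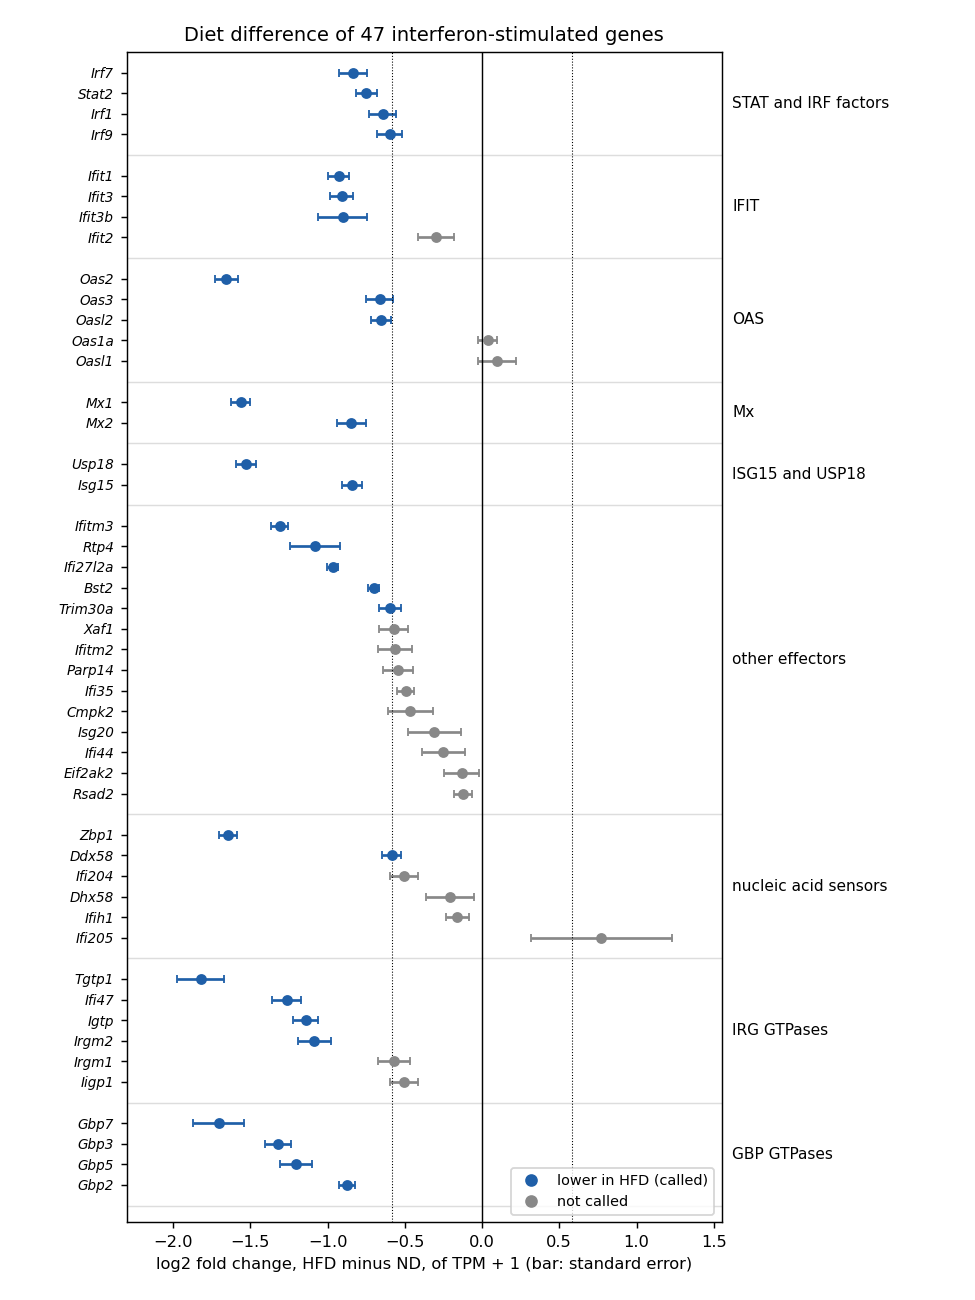
Log2 fold change (HFD minus ND, of TPM + 1) of each of the 47 members, ordered by role, with the standard error of the limma fit as a bar and the 1.5-fold limits as dotted lines. The 29 members called lower are blue and the others grey, and of the 3 members to the right of 0 the one furthest to the right, Ifi205, has the widest bar.

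The summed level of the 47 members was 5570.7 and 5526.0 TPM in the ND libraries and 3024.6 and 3353.9 TPM in the HFD libraries. Between 57.46% and 63.18% of that sum came from Ifitm2 and Ifitm3. Without this pair the sums were 2051.3 and 2127.9 TPM in ND against 1286.6 and 1339.6 TPM in HFD, so the lower sum did not rest on these abundant transcripts alone. In bulk RNA, fewer cells of a type and less RNA of a gene per cell cannot be told apart.

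All 4 transcription factors among the members fell with HFD. Irf7, the factor that amplifies type I interferon production, was at 26.2 and 26.9 TPM in ND and at 13.5 and 15.4 TPM in HFD, a log2 fold change of -0.84 ± 0.09 (SE, limma, adjusted p = 0.0149). Stat2, the STAT protein particular to the ISRE-binding complex, was at 16.9 and 17.4 TPM in ND and at 10 and 9.6 TPM in HFD, a change of -0.75 ± 0.07 (adjusted p = 0.0116). Irf9, which gives that complex its DNA contact, went from 27.4 and 29.8 TPM to 19.3 and 17.8 TPM (-0.60 ± 0.08, adjusted p = 0.0227). The difference of Irf9 lay just past the 1.5-fold limit, whereas those of Irf7 and Stat2 were clear of it. Irf1, an early IFN-γ target that itself activates other ISGs, was the most abundant factor, with 157.6 and 159.1 TPM in ND against 108.7 and 93.8 TPM in HFD (-0.64 ± 0.09, adjusted p = 0.0233). None of these 4 genes overlapped between the diets.

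The IFIT proteins bind viral RNA that lacks the host's cap marks, and 3 of the 4 IFIT members fell. Ifit1 was at 18.7 and 18.3 TPM in ND and at 9.5 and 9.0 TPM in HFD, a log2 fold change of -0.93 ± 0.07 (SE, adjusted p = 0.00892). Ifit3 was at 10.4 and 10.5 TPM in ND and at 5.1 TPM in both HFD libraries, which was 48.8% of the ND mean (-0.91 ± 0.07, adjusted p = 0.00995). Its close copy Ifit3b was at 6.0 and 5.9 TPM in ND and at 3.2 and 2.3 TPM in HFD (-0.90 ± 0.16, adjusted p = 0.0354). Of the 50-base stretches of the Ifit3 transcripts, 51.2% also occur in Ifit3b, so the split of reads between these neighbours is uncertain, although both had HFD values below all ND values. Ifit2 showed the smallest difference of the family, with 5.6 and 6.7 TPM in ND against 4.7 and 4.9 TPM in HFD, and was not called (-0.30 ± 0.12, adjusted p = 0.161). The 4 genes lie side by side on chromosome 19 of mm10, between 34550694 and 34650009.

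Several OAS genes encode enzymes that sense double-stranded RNA and make the signal that activates the nuclease RNase L. The OAS members did not move together. Oas2 had the largest difference of the type I-leaning members, with 23.8 and 24.9 TPM in ND against 7.3 and 6.8 TPM in HFD, so HFD libraries held 29.0% of the ND mean (log2 fold change -1.66 ± 0.08 SE, adjusted p = 0.0053). Oas3 was at 12.6 and 13.4 TPM in ND and at 8.2 and 7.5 TPM in HFD (-0.66 ± 0.09, adjusted p = 0.0209). Oasl2, an OAS-like protein, was at 16.2 and 16.1 TPM in ND and at 9.8 and 10 TPM in HFD (-0.65 ± 0.06, adjusted p = 0.013). The other OAS members did not follow. Oas1a, the most abundant of the family, was at 28.7 and 28.5 TPM in ND and at 30.4 and 28.4 TPM in HFD, a log2 fold change of 0.04 ± 0.06 (adjusted p = 0.689), with overlapping diets. Oas1a shares 57.6% of its 50-base stretches with Oas1g, which was at 13.5 and 12.0 TPM in ND and at 10.7 and 10.1 TPM in HFD, so reads of these copies may be split. Oasl1, which restrains translation of Irf7, was at 13 and 13.5 TPM in ND and at 15.7 and 12.9 TPM in HFD (0.10 ± 0.12, adjusted p = 0.602). The direction of Oas1a was not stable, since its log2 fold change was -0.07 after quantile normalization and -0.02 after rescaling without the 50 most abundant genes. Oas2, Oas3 and Oas1a lie within chr5:120730333-120907521 of mm10, so neighbouring genes of 1 locus gave unlike values, although the difference between them was not tested.

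Both Mx genes, dynamin-like GTPases that trap viral nucleocapsids, fell with HFD. Mx1 was at 35.2 and 37.2 TPM in ND and at 11.6 TPM in both HFD libraries, a log2 fold change of -1.56 ± 0.06 (SE, adjusted p = 0.00481). Mx2 was at 13.6 and 12.1 TPM in ND and at 6.5 and 6.9 TPM in HFD (-0.85 ± 0.10, adjusted p = 0.0166). The gene annotation used here lists Mx2 as a polymorphic pseudogene.

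The ubiquitin-like protein ISG15 and the protease USP18, which removes it from its targets and also holds back signalling at the type I receptor, were both lower. Isg15 was at 82.3 and 87.2 TPM in ND and at 48.4 and 45.2 TPM in HFD, a log2 fold change of -0.84 ± 0.06 (SE, adjusted p = 0.00913). Usp18 was at 24.7 and 23.7 TPM in ND and at 7.8 and 7.7 TPM in HFD, 32.0% of the ND mean (-1.53 ± 0.07, adjusted p = 0.00503). The negative regulator thus fell together with Isg15 and with most of the type I-leaning members, although Oas1a, Oasl1 and Ifit2 were not called.

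Of 14 other antiviral effectors, 5 fell and 9 were not called. Ifitm3, a membrane protein that blocks the fusion of virus with endosomes, showed the largest difference, with 1737 and 1679 TPM in ND against 662.4 and 713.8 TPM in HFD (log2 fold change -1.31 ± 0.05 SE, adjusted p = 0.005). Its neighbour Ifitm2, the most abundant member, was at 1782.4 and 1719.1 TPM in ND and at 1075.6 and 1300.5 TPM in HFD and was not called (-0.57 ± 0.11, adjusted p = 0.0436), because the change was under the 1.5-fold limit. The 2 genes were at nearly the same level in ND, whereas Ifitm3 was well below Ifitm2 in both HFD libraries. Of the 50-base stretches of Ifitm2, 48.5% occur in another gene, mainly the overlapping Gm45717, so its level is uncertain. Rtp4, an interferon-induced receptor transporter protein, was at 30.4 and 30.8 TPM in ND and at 16.1 and 12.0 TPM in HFD (-1.08 ± 0.16, adjusted p = 0.0265). Ifi27l2a, a small mitochondrial ISG product, was at 297.5 and 300.1 TPM in ND and at 151.1 and 154.0 TPM in HFD (-0.97 ± 0.04, adjusted p = 0.00459). Bst2, known as tetherin for holding budding virions at the cell surface, was at 316.3 and 326.3 TPM in ND and at 196.4 and 197.9 TPM in HFD (-0.70 ± 0.04, adjusted p = 0.006). None of these 3 genes overlapped between the diets. Trim30a, a ubiquitin ligase that limits inflammatory signalling, was the fifth gene called in this group, with 41.2 and 44.3 TPM in ND against 28.9 and 27.0 TPM in HFD (-0.60, adjusted p = 0.0184).

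The 8 effectors not called besides Ifitm2 had HFD means between 60.2% and 91.8% of the ND means. Xaf1, a promoter of apoptosis, was at 4.5 and 4.8 TPM in ND and at 2.9 and 2.7 TPM in HFD, with an adjusted p of 0.0323 and a change of -0.57 that missed the fold limit. The same held for Parp14 (-0.54) and Ifi35 (-0.49), whose exons overlap an antisense gene over 16.8% of their bases. Rsad2 (viperin), which makes a chain-terminating nucleotide, was not called, with 32.7 and 32.9 TPM in ND against 31.0 and 29.2 TPM in HFD (-0.12, adjusted p = 0.224). Cmpk2, the neighbour of Rsad2 that supplies its substrate, was at 13.7 and 14.6 TPM in ND and at 11.3 and 8.8 TPM in HFD (-0.46, adjusted p = 0.104). Eif2ak2 (PKR), the kinase that stops translation on double-stranded RNA, overlapped between the diets, with 20.5 and 22.8 TPM in ND against 21.2 and 18.2 TPM in HFD (-0.13, adjusted p = 0.455). Isg20, an RNA exonuclease, and Ifi44 were weakly expressed, at most 4.9 TPM and 2.0 TPM, and had adjusted p-values of 0.272 and 0.274.

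Of the 6 nucleic acid sensors, 2 were called lower. Zbp1, the sensor of Z-form nucleic acids that triggers necroptosis, had 38.1 and 38.7 TPM in ND against 11.5 and 11.7 TPM in HFD, a log2 fold change of -1.64 ± 0.06 (SE, adjusted p = 0.00449). Ddx58 (RIG-I), a sensor of RNA with a 5′ triphosphate, was at 38.9 and 40.7 TPM in ND and at 26.8 and 25.6 TPM in HFD and lay at the 1.5-fold limit itself (-0.58 ± 0.06, adjusted p = 0.014). The relatives of RIG-I were closer to level. Ifih1 (MDA5), which binds long double-stranded RNA, was at 10.7 and 11.1 TPM in ND and at 9.9 and 9.4 TPM in HFD (-0.16, adjusted p = 0.209). Dhx58 (LGP2), which modulates both, was at 47 and 47.1 TPM in ND and at 46.5 and 35.4 TPM in HFD (-0.21, adjusted p = 0.394). Only HFD replicate 2 was clearly lower for Dhx58.

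Ifi204 and Ifi205, members of the HIN-200 family of which several bind DNA, had opposite signs and neither was called. Ifi204 was at 98.6 and 109.6 TPM in ND and at 69.3 and 76.9 TPM in HFD (log2 fold change -0.50 ± 0.09 SE, adjusted p = 0.0366, under the fold limit). Of its 50-base stretches, 30.2% occur in other genes, mainly Ifi211. Ifi205 was at 71.4 and 76.7 TPM in ND and at 84.1 and 191.9 TPM in HFD, with a log2 fold change of 0.77 ± 0.46 (adjusted p = 0.299). The mean of Ifi205 was set by HFD replicate 2, the library with the most fibroblast transcripts. Without HFD replicate 1, its log2 fold change was 1.36 with an adjusted p of 0.035, the only member called higher in any setting.

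The IRG proteins are IFN-γ-induced GTPases that attack the vacuoles of intracellular pathogens, and 4 of 6 were called lower while all 6 had an adjusted p under 0.05. Tgtp1 had the largest fold change of all members, with 30.0 and 31.2 TPM in ND against 9.1 and 6.9 TPM in HFD (log2 fold change -1.82 ± 0.15 SE, adjusted p = 0.0102). Of its 50-base stretches, 89.4% also occur in its copy Tgtp2, which was at 41.1 and 46.9 TPM in ND and at 11.4 and 10.3 TPM in HFD (-1.92 ± 0.10, adjusted p = 0.006), so the pair is best read as 1 measurement. Ifi47 was at 25.0 and 28.1 TPM in ND and at 10.8 and 10.1 TPM in HFD (-1.27 ± 0.09, adjusted p = 0.0087). Igtp (Irgm3), the most abundant IRG, was at 63.5 and 67.0 TPM in ND and at 30.7 and 27.4 TPM in HFD (-1.14 ± 0.08, adjusted p = 0.00848). Irgm2 was at 30.3 and 33.6 TPM in ND and at 15.6 and 13.5 TPM in HFD (-1.08 ± 0.11, adjusted p = 0.0134). Igtp and Irgm2 overlap on chromosome 11, and 12.3% of the 50-base stretches of Igtp occur in Irgm2. Irgm1, a regulatory IRG that restrains the others on host membranes, was at 26.2 and 26.8 TPM in ND and at 19.0 and 16.1 TPM in HFD (-0.57, adjusted p = 0.037), just under the fold limit. Iigp1, an effector IRG, was at 7.8 and 8.4 TPM in ND and at 5.6 and 5.2 TPM in HFD (-0.51, adjusted p = 0.0366). No IRG overlapped between the diets.

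The GBPs, large GTPases that coat cytosolic bacteria and damaged vacuoles, all fell. Gbp7 was at 25.0 and 29.9 TPM in ND and at 8.7 and 6.8 TPM in HFD, a log2 fold change of -1.70 ± 0.17 (SE, adjusted p = 0.0129). Gbp3 was at 11.6 and 12.4 TPM in ND and at 4.3 and 4.1 TPM in HFD (-1.32 ± 0.08, adjusted p = 0.00741). Gbp5, which also promotes inflammasome assembly, was at 26.0 and 29.6 TPM in ND and at 12.1 and 10.9 TPM in HFD (-1.20 ± 0.10, adjusted p = 0.011). Gbp2, the most abundant of the 4, had the smallest difference, with 100 and 103.4 TPM in ND against 56.4 and 53.6 TPM in HFD (-0.88 ± 0.05, adjusted p = 0.00672). The 4 genes lie in 1 cluster, chr3:142493978-142638008 of mm10, and HFD held between 28.2% and 54.1% of their ND means.

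**Figure D2:**
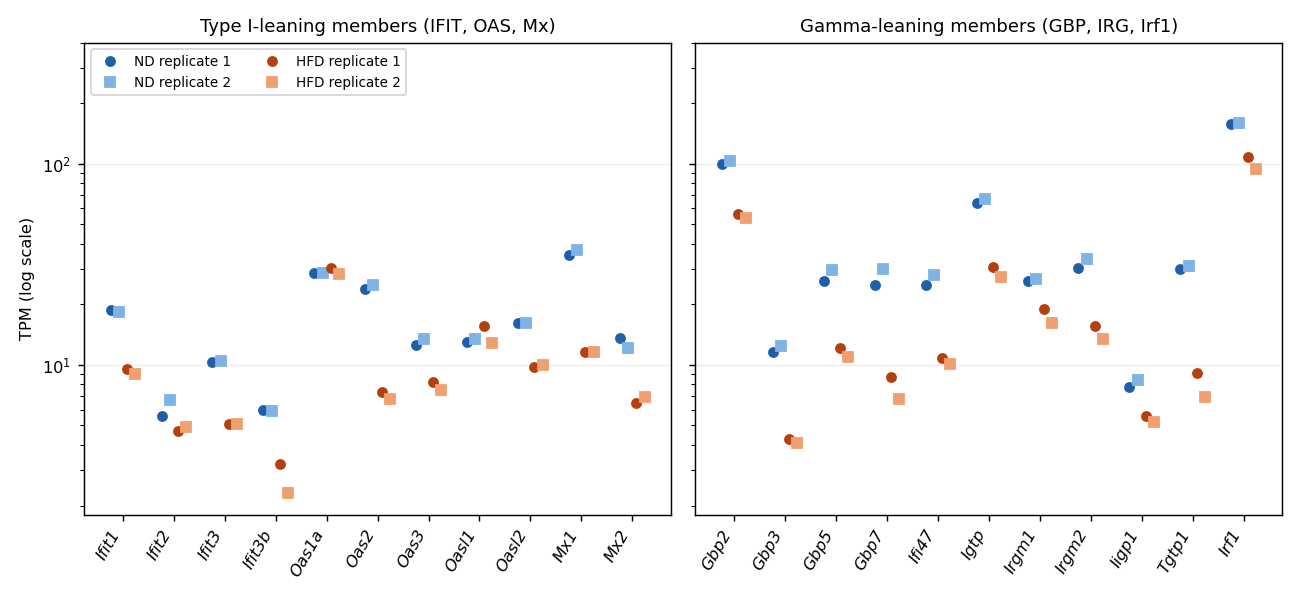
TPM of each library (log axis) for the 11 type I-leaning members on the left and the 11 gamma-leaning members on the right, with ND in blue and HFD in orange. The HFD points lie below the ND points in 9 of the 11 type I-leaning members, with Oas1a and Oasl1 overlapping, and in all 11 gamma-leaning members.

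The contrast of the 2 branches asked whether the lower ISG level leaned to type I or to IFN-γ targets. Of the 11 type I-leaning members, 8 were called lower, with a median log2 fold change of -0.85 and a range from -1.66 to 0.10. Of the 11 gamma-leaning members, 9 were called lower and all 11 had an adjusted p under 0.05, with a median of -1.14 and a range from -1.82 to -0.51. The medians differed by 0.30, and the sets overlapped over most of their range. When each HFD library was set against each ND library, the gamma-leaning median was the lower one in every combination, by 0.29, 0.30, 0.38 and 0.50, although these combinations share libraries. No p-value is given for this difference, since the members of a list are not replicates of a diet. The summed level of the type I-leaning members went from 183.8 and 187.1 TPM to 112 and 105.4 TPM, and that of the gamma-leaning members from 503 and 529.5 TPM to 281 and 248.4 TPM. Both sums were therefore lower in both HFD libraries, and Oas1a, Oasl1 and Ifit2 were the members of the 2 sets with an adjusted p above 0.05.

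The promoters of the members were compared for the sequences that the interferon-activated factors bind. RefSeq promoter windows (GRCm38.p6, from 250 bases before to 50 bases after each transcript start) were matched by symbol for 36 of the 47 members. Those without an entry were Mx1, Oas2, Usp18, Dhx58, Iigp1, Mx2, Ifi204, Rtp4, Parp14, Zbp1 and Ifi27l2a. The ISRE core was searched as GAAANNGAAA on both strands, and the GAS core as TTCNNNGAA, which reads the same on both strands, and matches could overlap. Stretches of 160 bases that end at the transcript start, in the sense of the gene, are given for 8 members to set type I targets beside IFN-γ targets, with both cores in capitals. Ifit1 lies at chr19:34640729-34640888 (plus strand) and Isg15 at chr4:156200819-156200978 (minus strand), both members that fell and hold ISRE cores alone. Oas1a, which overlapped between the diets, lies at chr5:120907526-120907685 (minus strand). Irf1, at chr11:53769854-53770013 (plus strand), holds a GAS core alone, and Gbp7, at chr3:142530176-142530335 (plus strand), holds both cores. The IRG stretches lie at chr11:58199396-58199555 (plus strand) for Igtp, at chr11:58214817-58214976 (plus strand) for Irgm2 and at chr11:48992247-48992406 (minus strand) for Tgtp1.
Ifit1: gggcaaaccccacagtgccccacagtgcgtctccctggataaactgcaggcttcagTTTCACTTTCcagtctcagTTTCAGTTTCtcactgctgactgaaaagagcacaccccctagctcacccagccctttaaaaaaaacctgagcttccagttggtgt
Isg15: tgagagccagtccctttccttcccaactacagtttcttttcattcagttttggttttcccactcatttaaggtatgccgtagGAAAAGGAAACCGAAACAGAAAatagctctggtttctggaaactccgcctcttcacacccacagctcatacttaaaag
Oas1a: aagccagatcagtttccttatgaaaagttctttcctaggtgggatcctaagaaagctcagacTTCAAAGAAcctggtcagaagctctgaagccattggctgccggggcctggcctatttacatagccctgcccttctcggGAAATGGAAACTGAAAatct
Irf1: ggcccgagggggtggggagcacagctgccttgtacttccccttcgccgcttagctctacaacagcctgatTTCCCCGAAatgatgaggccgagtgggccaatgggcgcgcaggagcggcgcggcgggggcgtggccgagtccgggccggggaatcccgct
Gbp7: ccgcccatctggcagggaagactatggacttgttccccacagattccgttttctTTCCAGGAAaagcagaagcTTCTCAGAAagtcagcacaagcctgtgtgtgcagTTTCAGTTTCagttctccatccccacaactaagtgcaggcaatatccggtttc
Igtp: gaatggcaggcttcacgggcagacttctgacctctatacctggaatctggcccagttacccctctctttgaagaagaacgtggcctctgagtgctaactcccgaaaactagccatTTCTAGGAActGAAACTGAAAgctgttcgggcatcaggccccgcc
Irgm2: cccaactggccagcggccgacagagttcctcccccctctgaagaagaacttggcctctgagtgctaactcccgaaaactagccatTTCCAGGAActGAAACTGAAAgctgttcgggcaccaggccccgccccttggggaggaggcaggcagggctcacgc
Tgtp1: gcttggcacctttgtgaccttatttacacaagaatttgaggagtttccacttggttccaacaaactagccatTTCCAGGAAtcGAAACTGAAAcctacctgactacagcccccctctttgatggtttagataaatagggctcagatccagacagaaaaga

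An ISRE core was found in 24 of the 36 members with a window, which is 66.7%, against 3.44% of all 32851 windows in the table. A GAS core was found in 13 members (36.1%) against 8.3% of all windows, and both in 9 members (25.0%) against 0.454%. Of the type I-leaning members, 5 of 8 with a window held an ISRE core, 2 a GAS core and 1 both. Among the gamma-leaning members, 8 of 10 held an ISRE core, 6 a GAS core and 5 both, so the ISRE core was common in both sets. In Ifit1 the ISRE cores start 104 and 85 bases before the transcript start. In Isg15, 3 overlapping cores start 78, 72 and 66 bases before it.

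The 3 IRG promoters share an arrangement that was noticed after the sequences were viewed. In Igtp, Irgm2 and Tgtp1 the ISRE core begins 11 bases after the first base of a GAS core. With the ISRE core read as GAAANNGAAA in the sense of the gene, this spacing occurs in 5 of the 32851 windows. Windows with the ISRE core on the other strand were not counted. The other 2 windows belong to Tgtp2 and Gm12185, and all 5 lie on chromosome 11. They are not independent occurrences. Tgtp1 shares 89.4% of its 50-base stretches with Tgtp2 and overlaps Gm12185, and the stretches printed for Igtp and Irgm2 are nearly identical around the cores. The GAS core starts 45 bases before the RefSeq transcript start in Igtp, 75 in Irgm2 and 88 in Tgtp1. For Irgm2, and for Gbp7 and Oas1a above, that start was not found in the GENCODE vM21 transcripts of the gene.

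Set beside the expression values, the 9 members with both cores had a median log2 fold change of -1.14, and 7 of them were called lower. The 15 members with an ISRE core and no GAS core had a median of -0.66, with 10 called lower. The 4 members with a GAS core alone (Irf1, Ifit2, Isg20 and Ifi35) had a median of -0.40, with 1 called lower, and the 8 with neither core had a median of -0.59, with 4 called lower. Oas1a and Eif2ak2 held both cores and had overlapping diets, whereas Ifi47 held neither and fell. A match is a description of letters in a window and shows neither binding nor a cause, and the absence of a match says only that these letters are not in this window.

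**Figure D3:**
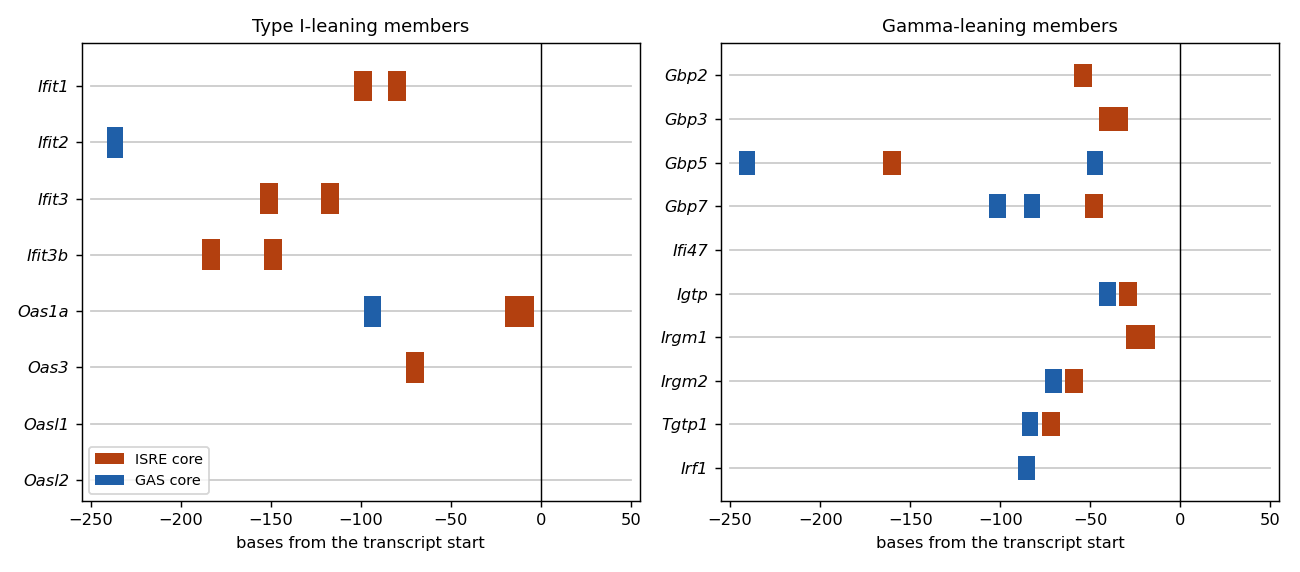
Position of ISRE cores (orange) and GAS cores (blue) in bases from the transcript start (vertical line) for the type I-leaning members on the left and the gamma-leaning members on the right that had a promoter window. Igtp, Irgm2 and Tgtp1 show the GAS core just before the ISRE core, and Ifi47, Oasl1 and Oasl2 show no core.

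The other genes of the pathway were taken from a list of 102 ligands, receptors, kinases, factors, inhibitors, upstream sensors and further targets, of which 75 passed the filter on low values. Of these 75, 26 were lower and 3 higher in HFD, beside 10.3% and 8.08% of all genes tested. Of those called lower, 7 had passed the filter through ND alone. Among 21 interferon ligands, Ifng and Ifnb1 alone passed the filter, and the others were at or below 0.5 TPM in every library. Ifng, the gene of IFN-γ, was at 16.9 and 17.9 TPM in ND and at 1.2 and 1.8 TPM in HFD, so HFD held 8.6% of the ND mean (log2 fold change -2.89 ± 0.16 SE, adjusted p = 0.00613). Ifnb1, the gene of IFN-β, was at 3.3 and 4.4 TPM in ND and at 1.6 and 0.7 TPM in HFD and was not called (-1.20 ± 0.28, adjusted p = 0.0618). Both ligand genes that could be measured thus had HFD values below both ND values, and the difference was larger for Ifng.

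The receptor genes were mixed in direction. Ifngr2, the signalling chain of the IFN-γ receptor, was at 92.9 and 93.3 TPM in ND and at 190.4 and 202.8 TPM in HFD, a rise of 1.07 ± 0.05 on the log2 scale (SE, adjusted p = 0.00536). Ifngr1, the chain that binds IFN-γ, was at 492.8 and 501.2 TPM in ND and at 357.4 and 401.8 TPM in HFD (-0.39, adjusted p = 0.0393, under the fold limit). The subunits of 1 receptor therefore lay on opposite sides of 0. Ifnar1 was at 62.5 and 65.6 TPM in ND and at 86.3 and 91.6 TPM in HFD (0.47, adjusted p = 0.0194, under the fold limit), and Ifnar2 at 28.5 and 29.1 TPM and at 30.2 and 32.8 TPM (0.12, adjusted p = 0.267). Il10rb, the chain shared by the receptors of IL-10 and IFN-λ, rose from 112.2 and 118.6 TPM to 182.5 and 187.6 TPM (0.68, adjusted p = 0.00876), whereas Ifnlr1, the specific IFN-λ chain, was at most 0.4 TPM.

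Of the kinases, Jak2, which serves the IFN-γ receptor, fell from 15.8 and 17.4 TPM to 9.5 and 10.6 TPM (log2 fold change -0.67, adjusted p = 0.0252). Tyk2, which serves the type I receptor, was at 19.9 TPM in both ND libraries and at 14.2 and 13.5 TPM in HFD (-0.49, adjusted p = 0.0207, under the fold limit), and Jak1, shared by both, was at 89.0 and 94.3 TPM in ND and at 78.8 and 84.5 TPM in HFD (-0.17, adjusted p = 0.152). Thus 1 of the 3 kinases was called. Among the other IRF factors, Irf4, a factor of lymphocytes and alternatively activated macrophages, fell from 59.7 and 62.6 TPM to 27.9 and 20.8 TPM (-1.31, adjusted p = 0.0199). Irf8, a factor of monocytes and dendritic cells, was at 94.5 and 97.3 TPM in ND and at 77.5 and 70 TPM in HFD (-0.38, adjusted p = 0.0394, under the fold limit), and Irf5 was at -0.01 (adjusted p = 0.913). Of 8 inhibitors, Socs3 alone was called, with 615.8 and 613.6 TPM in ND against 332.4 and 354.1 TPM in HFD (-0.84, adjusted p = 0.00626). For so short a list, 1 call is near the 10.3% of all genes tested that were called lower. Socs1, the inhibitor of JAK kinases induced by IFN-γ, was at 26.1 and 25.2 TPM in ND and at 17.8 and 26.5 TPM in HFD, with overlapping diets (-0.23, adjusted p = 0.5).

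**Figure D4:**
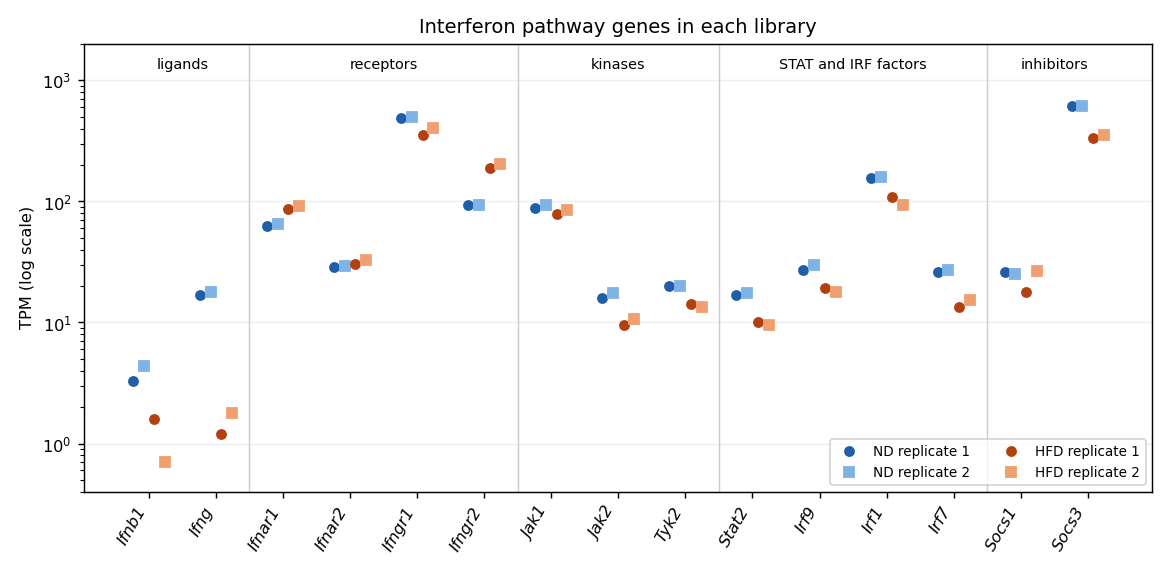
TPM of each library (log axis) for ligands, receptors, kinases, factors and inhibitors of the interferon pathway, with ND in blue and HFD in orange. Ifng shows the widest gap between the diets, Ifngr2 is the receptor gene called higher in HFD among those drawn, and Socs1 overlaps between the diets.

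Upstream of interferon, 11 sensing genes were tested, with Tlr9 alone called lower and Ikbke alone called higher. These counts are near the shares of all genes tested, of which 10.3% were called lower and 8.08% higher. Tlr9, the endosomal receptor of CpG DNA, went from 44.4 and 45.9 TPM to 21.8 and 19.4 TPM (log2 fold change -1.10, adjusted p = 0.00886). Ikbke, a kinase that activates IRF3 and IRF7, went from 9.5 and 10 TPM to 18.9 and 19.1 TPM (0.90, adjusted p = 0.00899). The further type I-leaning genes of the list were mixed, with 8 of 27 tested called lower, beside 10.3% of all genes tested. Ifit1bl1 among these 8 passed the filter through ND alone. A higher level was called in 0 of them, where 8.08% of all genes were called higher, and 3 had an unadjusted limma p under 0.05 with a higher level in HFD. The largest differences among the further type I-leaning genes were those of Ly6e, a lipid-anchored surface protein, with 198.8 and 189.7 TPM in ND against 55.3 and 56.6 TPM in HFD (-1.78, adjusted p = 0.00402), and of Epsti1, with 44.8 and 47.9 TPM in ND against 18.8 and 19.6 TPM in HFD (-1.23, adjusted p = 0.00598). Of the 13 further gamma-leaning genes, 6 (Gbp2b, Gbp6, Gbp8, Gbp11, Gm4951 and Ido1) were under 1 TPM in both HFD libraries and passed the filter through ND alone, so they had to differ and no count over this list is given. Gbp2b (GBP1) was at 9.4 and 10 TPM in ND and at 0.5 and 0.3 TPM in HFD, 4.1% of the ND mean. The genes of the list measured in both diets were Tgtp2, Gbp4 (-1.10, adjusted p = 0.013), Gbp9 (-0.74, adjusted p = 0.0231), Gbp10 (-0.93, adjusted p = 0.0169), the class II transactivator gene Ciita (-0.74, adjusted p = 0.0322) and the chemokine genes Cxcl9 and Cxcl10, each called lower. Cxcl9 went from 28.2 and 31.0 TPM to 17.2 and 14.6 TPM (-0.86, adjusted p = 0.0212), and Cxcl10 from 226.3 and 234.8 TPM to 92.2 and 66.6 TPM (-1.54, adjusted p = 0.0179).

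Markers of several cell types moved with the diet beside the ISGs. Among the cells that make IFN-γ, all 6 NK cell markers fell, from a sum of 188.1 and 192.7 TPM to 39.4 and 31.5 TPM, and all 4 T cell markers tested fell, from 117.4 and 125.1 TPM to 13.4 and 26.3 TPM. Among the defining markers, Ncr1 of NK cells was at 17.7 and 20.8 TPM in ND and at 2.9 and 2.5 TPM in HFD, and Cd3e of T cells was at 20.3 and 20.4 TPM in ND and at 2.6 and 4.3 TPM in HFD. All 5 B cell markers fell as well, from 115.6 and 114 TPM to 23.1 and 27.1 TPM. Klre1 of the NK cell list and Pax5 of the B cell list passed the filter through ND alone. Markers of plasmacytoid dendritic cells, producers of type I interferon, were weakly expressed, with a sum of 20 and 19.9 TPM in ND against 11.8 and 12.1 TPM in HFD. Siglech, the 1 of their 3 markers tested that was called, was at 6.2 and 7.3 TPM in ND and at 0.4 and 0.3 TPM in HFD and passed the filter through ND alone. Tcf4 (-0.09) and Cox6a2 (-0.06) were not called, and Runx2, not tested, was at 0.6 TPM in both ND libraries and at 0.7 and 0.8 TPM in HFD. Of 5 general macrophage markers, Adgre1 (log2 fold change 0.78, adjusted p = 0.00623) and Cd68 (0.86, adjusted p = 0.00481) were called higher and Csf1r was at -0.56, and their sum was 1536.8 and 1531.6 TPM in ND against 2287.5 and 2309.9 TPM in HFD. In the other macrophage lists, all 7 markers of resident macrophages fell, from 3845.6 and 3997.8 TPM to 1383.7 and 1124.6 TPM, and all 6 markers of lipid-associated macrophages rose, from 1024.6 and 1073.4 TPM to 7793.3 and 8164.8 TPM.

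Of 6 monocyte markers 3 were lower (247.8 and 261.8 TPM against 113 and 161.4 TPM), of 5 dendritic cell markers Cd209a (367.2 and 393 TPM against 65 and 58 TPM) and Zbtb46 (3.9 and 4 TPM against 1.8 and 1.9 TPM) were lower while Flt3, Xcr1 and Clec9a were not called, and all 4 neutrophil markers tested were lower, while the defining neutrophil marker Ly6g was at most 0.1 TPM in every library. Markers of cells outside the sort were present too, since 4 of 6 fibroblast markers were called higher in HFD and the 6 spermatid markers were listed in all 4 libraries with none called. The part of these cell types in the ISG levels was not tested. The count of members called lower was 27 without the HFD library high in spermatid transcripts and 26 without the HFD library highest in fibroblast transcripts.

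**Figure D5:**
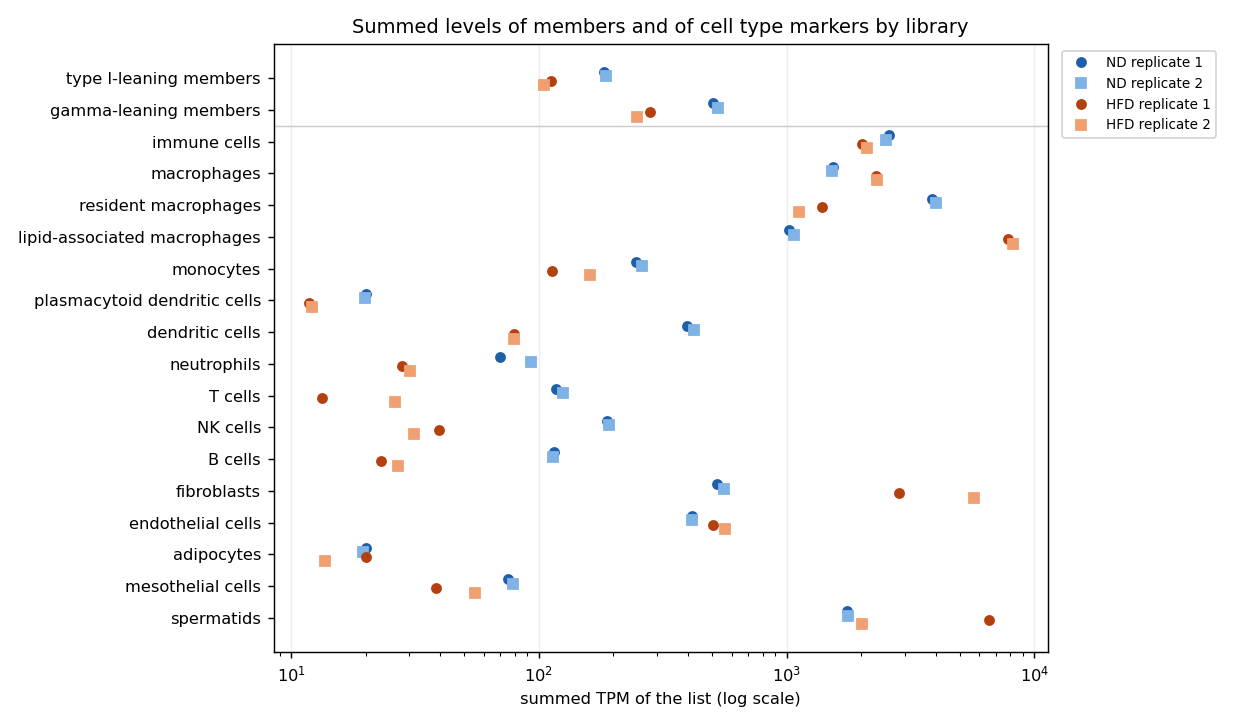
Summed TPM in each library (log axis) of the type I-leaning and gamma-leaning members, above the line, and of marker genes of cell types, below it, with ND in blue and HFD in orange. The sums of NK, T and B cell markers lie lower in HFD like those of the members. Those of the pan-immune, resident macrophage, monocyte, dendritic cell, plasmacytoid dendritic cell, neutrophil and mesothelial markers lie lower too. Those of the general and lipid-associated macrophage, fibroblast, endothelial and spermatid markers lie higher, and those of the adipocyte markers overlap.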

How the data were processed

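The authors prepared RNA libraries of CD45+ eWAT cells, 2 of ND and 2 of HFD mice. Per the submitters' processing notes, reads were trimmed with Trim Galore 0.4.2 and cutadapt 1.9.1, aligned to mm10 with STAR 2.6.1e, freed of duplicates with Sambamba and counted with featureCounts 1.6.2. The authors deposited TPM per gene, printed to 1 decimal, in 4 tables with no other column left unused. The gene annotation and the use of strand in counting are not given in the sources used here.

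Genes that reached 1 TPM in 2 or more samples (16849 of 35869) were compared as log2(TPM + 1) with limma 3.58.1 in R 4.3.3 (lmFit, eBayes with a variance trend) over all 4 samples, with Benjamini-Hochberg adjustment over all genes tested. The calls needed an adjusted p under 0.05 and at least a 1.5-fold change. Since the values are not counts, no count model was fitted. TPM are shares of a sample's RNA, so a gene can be lower because other transcripts rose. The fit was tested on simulated data. All members were named by role, and those called, together with the most abundant of each role, were given with full values, up to 4 per role. A few more were given in full beside their relatives. Of other pathway genes, a fixed set and the 2 largest called changes per list were named, and the remaining ones that are named were chosen after their values were seen. The values of 1 pathway gene on the list are not reported here. The members and lists were chosen with earlier results of these data known. Positions came from GENCODE vM21 and promoters from RefSeq GRCm38.p6. Shared sequence is the share of 50-base stretches of a gene's longest transcript found in transcripts of other genes. The alternatives were other pseudocounts, filters, variance estimates, scalings and fold limits, a replicate block, other list members and each sample left out. Plots used matplotlib 3.10.9 (Python 3.11.15).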

Additional observations from a re-analysis of the deposited data

How the results depend on the processing

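The number of members called lower, 29 by the main settings, was 22 with a pseudocount of 5, 26 with no filter, 28 with a mean TPM of at least 5, 31 with a pseudocount of 0.1 or median-ratio scaling, and 33 with quantile normalization, and also 33 when the 50 most abundant genes were left out of the scaling. At a 2-fold limit it was 13. The share of all genes called lower was 10.3% by the main settings and 5.32% at the 2-fold limit. That share was 6.36% with a pseudocount of 5, 4.58% with no filter, and 9.81% to 11.6% in the other settings named above. Leaving out a sample gave 0 to 27 members called lower, with 0 when either ND sample was left out, and 0 to 1 called higher, the 1 being Ifi205 without HFD replicate 1. The replicate numbers were not read as pairs, since same-numbered samples did not deviate together (r = -0.02), and with a replicate block 8 members were called lower, beside 2.4% of all genes, and 8 other pathway genes. Of other pathway genes, 29 were called by the main settings, 18 with a pseudocount of 5, 14 at the 2-fold limit and 0 to 26 with a sample left out. The type I-leaning median was -0.93 with a pseudocount of 0.1, -0.51 with a pseudocount of 5, -0.75 with a mean TPM of at least 5, -0.91 with quantile normalization and -0.92 without the 50 most abundant genes, and -0.90 to -0.73 with a sample left out. The gamma-leaning median was -0.92 with a pseudocount of 5. The difference of the medians was 0.41 with a pseudocount of 5 and 0.20 to 0.41 with a sample left out, and it was 0.24 with Irgm1 and Irgm2 as the IRGs of the gamma-leaning list, or without Oasl1 and Oasl2 in the type I-leaning list. It kept its sign in each setting in which it was recomputed, which leaves out the changes of variance estimate, block and fold limit. Oas1a, at 0.04, reversed to -0.068 with quantile normalization and -0.021 without the 50 most abundant genes, and ranged from -0.0098 (without HFD replicate 1) to 0.085 with a sample left out, and Oasl1 ranged from -0.036 (without HFD replicate 1) to 0.23. The cause was not tested. With 2 samples a diet, the estimate of the spread rests on few samples, and the pseudocount understates fold changes of genes at a few TPM.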
